A study of Mus musculus with 15 samples.

Results

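The Zic family of zinc finger transcription factors was followed through the growth of mouse cerebellar granule neurons and in medulloblastoma. The 4 members Zic1, Zic2, Zic4 and Zic5 were taken by name, after Ensembl identifiers had been matched to gene symbols. They are 4 of 21889 genes in the count tables, and all 4 passed the filter on low counts, as did 15259 genes in all. Their identifiers are ENSMUSG00000032368 (Zic1), ENSMUSG00000061524 (Zic2), ENSMUSG00000036972 (Zic4) and ENSMUSG00000041703 (Zic5).

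Zic proteins bind DNA through a row of zinc fingers related to those of the Gli proteins, which carry the response to sonic hedgehog. In the cerebellum they are known as lasting markers of the granule neuron lineage, from its dividing precursors in the external granule layer to mature granule neurons. Sonic hedgehog keeps those precursors dividing, and medulloblastoma of the hedgehog type grows from them when the receptor gene Ptch1 is damaged. Zic genes are also active in the meninges and in the dorsal midline of the brain.

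The study made polyadenylated RNA libraries from mouse cerebellum, 3 in each of 5 groups, 15 in all. Granule neuron precursors were taken before birth at E15.5 (an embryonic day) from mice of the genotype Math1-GFP, and on postnatal days 1, 7 and 14 (P1, P7 and P14) from wild-type mice. Math1-GFP is a reporter mouse in which a fluorescent protein follows Math1, another name of Atoh1, so age and genotype cannot be told apart between E15.5 and the later ages. The last group, MB, held medulloblastoma cells from Ptch1 heterozygous mice, with no age in the labels. The labels describe all cells as purified on Percoll and do not say whether the replicates of a group came from separate animals or tumours, so the p-values measure the spread between these libraries.

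Gene counts ranged from 12597472 to 43443132 per library. Each of the 4 members was counted at least 1865 times in every library, which leaves counting error small beside the spread between replicates. Defining genes of the labelled lineage were present: Atoh1, the factor that specifies granule precursors, had a mean of 129 CPM (counts scaled to the effective size of each library) at E15.5 and 47.7 at P1, then 30.6 at P7 and 11.9 at P14, and 280 in MB. Gabra6, a receptor subunit of mature granule neurons, was at 0 CPM in every E15.5 library. It was at 38.4 ± 55.1 at P1, 7.43 ± 4.25 at P7 and 175 ± 22.9 at P14 (SD, n = 3), so its means did not rise in order of age. P1 replicate 3 stood apart from the other P1 libraries, with a summed level of 7 genes of maturing granule neurons of 2584 CPM against 771 and 785. Its markers of the oligodendrocyte lineage summed to 3540 CPM, against 584 and 924 in the other P1 libraries. The libraries also fell into counting sets of 6 and 9, told apart by Tsnax, whose gene count was at most 0.27% of its transcript model count in the first and at least 92.4% in the second. P7 fell wholly in the first set, P1 and P14 wholly in the second, and E15.5 and MB were split. A difference of P7 from P1 or P14 therefore cannot be told apart from one between the counting sets.

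The 4 genes lie in the genome as neighbouring pairs that point away from each other. In the deposited transcript models, on the mm9 build, Zic1 lies at chr9:91252896-91260606 on the minus strand with 3 exons in its longest model, and Zic4 at chr9:91273480-91284186 on the plus strand with 3 exons. Zic5 lies at chr14:122856017-122864899 on the minus strand with 2 exons, and Zic2 at chr14:122874657-122879074 on the plus strand with 3 exons. The start of Zic1 was 12874 bases from that of Zic4 in these models, and the start of Zic5 was 9758 bases from that of Zic2.

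The 250 bases before the start are shown for 3 of the 4 members, to set the promoters of 1 divergent pair side by side with that of a gene of the other pair. They are from RefSeq on GRCm38.p6, a later build than that of the counts, and Zic2 had no entry in the table used. Each reads 5′ to 3′ on the gene's own strand. Capitals mark matches, on either strand, to 6 motifs that were searched. The GC box was read as GGGCGG and the CCAAT box as that word, the TATA box as TATAAA and an E-box as CAGCTG. A Zic-type site was read as CCTGCTG and a Gli site as TGGGTGGTC.
Zic1, chr9:91365769-91366018, minus strand: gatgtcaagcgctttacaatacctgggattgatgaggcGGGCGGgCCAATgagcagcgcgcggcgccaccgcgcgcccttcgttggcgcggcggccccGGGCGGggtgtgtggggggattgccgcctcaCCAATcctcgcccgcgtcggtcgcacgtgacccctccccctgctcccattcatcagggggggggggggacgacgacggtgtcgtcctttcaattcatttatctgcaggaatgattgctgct
Zic4, chr9:91368722-91368971, plus strand: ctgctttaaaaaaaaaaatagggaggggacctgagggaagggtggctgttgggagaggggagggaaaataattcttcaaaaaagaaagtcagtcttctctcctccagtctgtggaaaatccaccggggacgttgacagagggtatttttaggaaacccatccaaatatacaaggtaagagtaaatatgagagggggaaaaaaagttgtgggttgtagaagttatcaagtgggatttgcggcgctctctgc
Zic5, chr14:122465659-122465908, minus strand: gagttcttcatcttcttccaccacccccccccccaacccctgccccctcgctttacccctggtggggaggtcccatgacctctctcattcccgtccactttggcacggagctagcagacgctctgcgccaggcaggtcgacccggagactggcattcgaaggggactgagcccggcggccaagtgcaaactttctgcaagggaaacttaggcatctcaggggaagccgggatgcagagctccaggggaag

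The 3 promoters differ in base composition. That of Zic1 held 66% G and C and 27 CG pairs, more CG pairs than 91.4% of the 32851 mouse promoters in the table. Zic5 held 62.4% G and C with 11 CG pairs, and Zic4 held 44.4% with 4 CG pairs, while the median promoter had 52.4% and 6 CG pairs. The Zic1 promoter held 2 GC boxes, at positions 39 and 99 of the printed sequence, and 2 CCAAT boxes, at positions 46 and 130. No searched motif matched in the printed windows of Zic4 and Zic5. GC boxes were found in 32.7% of all promoters and CCAAT in 33.9%. The TATA box was found in 12.4%, the E-box in 13%, the Zic-type site in 8.44% and the Gli site in 0.225% of promoters. RefSeq places the starts of Zic1 and Zic4 3204 bases apart, nearer than the deposited models do, so the printed Zic4 window belongs to the RefSeq start and not to that of the deposited model.

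Zic1 and Zic2 were among the most abundant transcripts of these cells per length, and Zic4 and Zic5 were several times lower. The mean level over the 15 libraries, in RPKM (the CPM divided by the exon length in kilobases), was 284 for Zic1, 208 for Zic2, 49.9 for Zic4 and 39.2 for Zic5. Across libraries, Zic1 stood between the percentiles 96.2 and 99.7 of the tested genes with a deposited exon length, and Zic2 between 95.1 and 99.4. Zic4 stood between 78.1 and 94.0, and Zic5 between 72.1 and 91.7. The rank of Zic2 per length rests on 1 gene model of 2440 bases. A second deposited model without a gene name overlaps its start, and with the exons of both, 3746 bases, the mean of Zic2 was 135 RPKM.

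The 4 genes stayed high in every group. Their summed level was 470 ± 119 RPKM at E15.5 and 546 ± 54.3 at P1, then 717 ± 28.8 at P7 and 672 ± 38.7 at P14, with 501 ± 116 in MB (SD, n = 3 each). The range between the lowest and the highest group mean was 0.91 for Zic1, 0.75 for Zic2, 0.65 for Zic4 and 0.68 for Zic5 on the log2 scale. The median of all tested genes was 1.20, so each member varied less over the groups than the median gene. The share of Zic1 in that sum was 42.1% ± 3.74 at E15.5, 50.8% ± 0.605 at P14 and 53.7% ± 2.20 in MB (SD, n = 3). Differences in this share between groups were not tested.

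Of the 4 members, Zic1 and Zic4 changed over the 4 ages, and both had their lowest group mean at E15.5. Zic2 and Zic5 did not pass the test. In a test of any difference among E15.5, P1, P7 and P14 (edgeR quasi-likelihood test, Benjamini-Hochberg adjustment over 15259 genes), the adjusted p was 0.00702 for Zic1, 0.00980 for Zic4, 0.418 for Zic2 and 0.222 for Zic5. The test called 55.7% of all genes, so 2 of 4 is near the background.

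Zic1 is the best known cerebellar member, needed for the full number of granule neurons. It was at 1115, 1317 and 883 CPM in the E15.5 libraries, at 1400, 1262 and 1650 at P1, at 2041, 2182 and 1942 at P7, and at 1992, 1825 and 1962 at P14. All P7 and P14 libraries lay above all those of E15.5 and P1, and the E15.5 and P1 ranges overlapped. The P7 mean was 1.86 times that of E15.5 (log2 difference 0.89, 95% interval 0.45 to 1.34, adjusted p = 0.00361), and the P14 mean was 1.74 times that of E15.5 (0.80, interval 0.36 to 1.24, adjusted p = 0.00489). Single steps did not pass, with 0.38 for P1 against E15.5 (adjusted p = 0.147), 0.52 for P7 against P1 (0.181) and -0.09 for P14 against P7 (0.801). P14 against E15.5 was 0.50 (adjusted p = 0.0869) once the fit carried a term for the counting set. It was 0.55 within 1 set, where the E15.5 arm is replicate 2 alone.

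Zic4, the divergent partner of Zic1 and, with it, deleted in some human cerebellar malformations, was also lowest at E15.5. Its libraries were at 165, 156 and 125 CPM at E15.5, at 256, 205 and 214 at P1, at 221, 247 and 226 at P7, and at 193, 177 and 196 at P14. Every P1 library lay above every E15.5 library, and P14 lay below P1 and P7 without overlap. Zic4 was 1.52 times higher at P1 than at E15.5 (log2 difference 0.60, interval 0.27 to 0.93, adjusted p = 0.00561) and 1.56 times higher at P7 (0.64, interval 0.31 to 0.97, adjusted p = 0.00489). It was the member called in P1 against E15.5, where 46.3% of all genes were called and 25.4% were called higher. That call did not hold with a term for the counting set (0.48, adjusted p = 0.0593) or within 1 set (0.53, adjusted p = 0.0722), where the E15.5 arm is replicate 2 alone and is assumed to vary like the other groups. P14 against E15.5 was 0.34 (adjusted p = 0.0788), P7 against P1 0.04 (0.924) and P14 against P1 -0.26 (0.30).

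Of the 4 members, 2 were called in P7 against E15.5 and 1 in P14 against E15.5, all higher. The background was 37.8% of genes called in the first comparison, 21.6% called higher, and 50.9% in the second, 26.7% called higher. In P14 against E15.5, upper quartile scaling also called Zic4 (0.43, adjusted p = 0.0328). Zic5 was called lower there without E15.5 replicate 3 (-0.72, adjusted p = 0.0291) and within 1 set (-0.90, 0.0455), again with E15.5 replicate 2 as the single E15.5 library.

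Zic2, whose loss in people causes holoprosencephaly, a failure of the forebrain to divide, had no called change over the ages. It was at 550, 572 and 305 CPM at E15.5, at 498, 422 and 494 at P1, at 563, 533 and 685 at P7, and at 646, 563 and 627 at P14. E15.5 replicate 3 was the lowest of these libraries, and the P7 and P14 libraries lay above those of P1. The steps were -0.01 (adjusted p = 0.973), 0.33 (0.531) and 0.04 (0.936) on the log2 scale in order of age. After a correction for the GC content of transcripts the steps were 0.31, 0.11 and -0.20. P14 against P1 then went from 0.38 to -0.09, and none of these was called.

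Zic5, the divergent partner of Zic2, was at 194, 285 and 116 CPM at E15.5, at 241, 167 and 171 at P1, at 172, 279 and 274 at P7, and at 165, 139 and 152 at P14. Its replicates spread more than those of the other members, with an SD of 84.5 CPM on a mean of 198 at E15.5. All P14 libraries lay below those of P1 and P7. P14 against P7 was -0.67 (interval -1.27 to -0.07, adjusted p = 0.133), which passed when those groups were fitted alone (-0.67, adjusted p = 0.0382).

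Of the 4 members, 0 were called in P7 against P1, P14 against P7 or P14 against P1, where 3.15%, 10.3% and 8.94% of genes were called by edgeR. At an unadjusted p under 0.05 the number of members was 1, 1 and 0, and DESeq2 called 0 in each. The shares of all genes that passed either of these were not counted. Of these comparisons, P7 against P1 and P14 against P7 also set one counting set against the other.

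**Figure D1:**
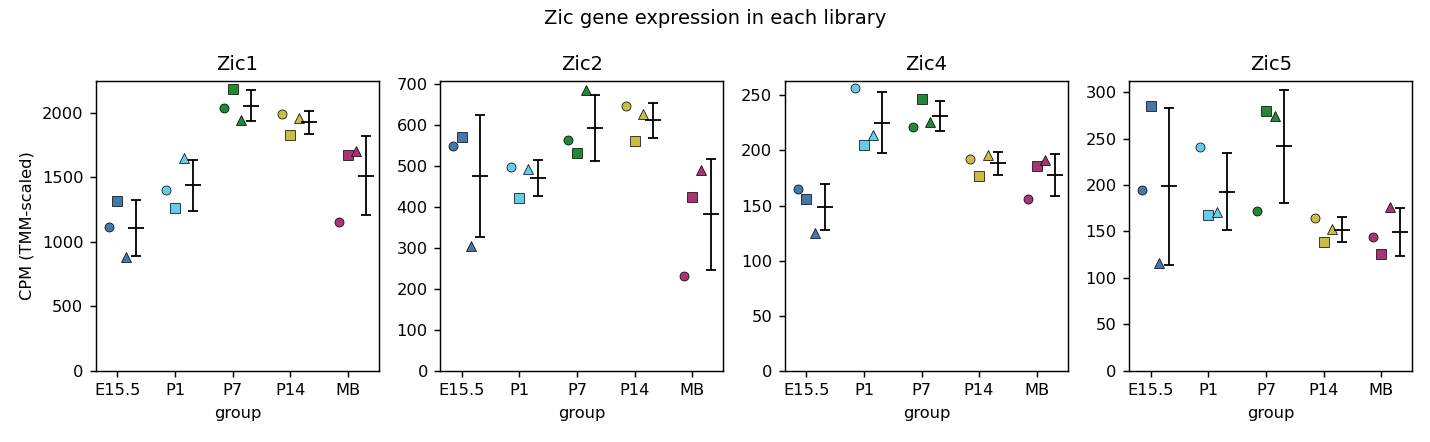
CPM, scaled by TMM, of each Zic gene (vertical axis, from 0) in each library of the 5 groups (horizontal axis); circles, squares and triangles are replicates 1, 2 and 3, and bars give the mean and SD of 3. Zic1 is lowest at E15.5 and highest at P7, and Zic4 rises between E15.5 and P1.

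In the order of group means, no neighbouring groups differed past the threshold for any of the 4 genes. For Zic1 the order was E15.5, P1, MB, P14, P7, with adjusted p between neighbours of 0.147, 0.803, 0.174 and 0.801. For Zic4 it was E15.5, MB, P14, P1, P7 (0.176, 0.689, 0.30 and 0.924). For Zic2 it was MB, P1, E15.5, P7, P14 (0.402, 0.973, 0.361 and 0.936), and for Zic5 it was MB, P14, P1, E15.5, P7 (0.941, 0.458, 0.922 and 0.437). Zic2 went from 382 ± 135 CPM in MB to 612 ± 43.7 at P14 (SD, n = 3).

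Markers of other cells that express Zic genes moved over the same steps. These libraries are bulk samples, so fewer cells of a type and less RNA per cell cannot be told apart. Of 12 markers of meninges and fibroblasts, 12 were higher at P1 than at E15.5, and their summed level ranged from 34.2 to 51.4 CPM at E15.5, 806 to 1412 at P1, 470 to 728 at P7 and 686 to 919 at P14. Col1a1, a collagen of fibroblasts, was at 0.840 to 2.05 CPM at E15.5 and 50.2 to 82.4 at P1. Choroid plexus markers summed to 97.2 to 379 CPM at E15.5, 407 to 10509 at P1, 52.4 to 2031 at P7 and 5191 to 8584 at P14. Their part in the rise of Zic1 and Zic4 after E15.5 was not tested.

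Markers of the granule lineage itself also shifted with age. Genes of maturing granule neurons summed to 579 to 1137 CPM at E15.5, 771 to 2584 at P1, 1725 to 2767 at P7 and 3073 to 4106 at P14. Markers of dividing precursors summed to 1443 to 2048 CPM at E15.5, 1964 to 2901 at P1, 2777 to 3750 at P7 and 1291 to 1630 at P14. Astroglial markers, at 149 to 378 CPM at E15.5, were at 2571 to 3840 by P1. Oligodendrocyte lineage markers summed to 67.9 to 102 CPM at E15.5 and 5394 to 5869 at P14. Other lists were highest before birth or fell: GABAergic interneuron markers summed to 525 to 755 CPM at E15.5 and 200 to 313 at P1. Of those 8 genes, 6 were lower and 2 higher at P1, against 46.3% of all genes called. Purkinje cell markers summed to 550 to 842 CPM at E15.5 and 369 to 472 at P1. The share of these cells in the Zic levels was not tested.

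**Figure D2:**
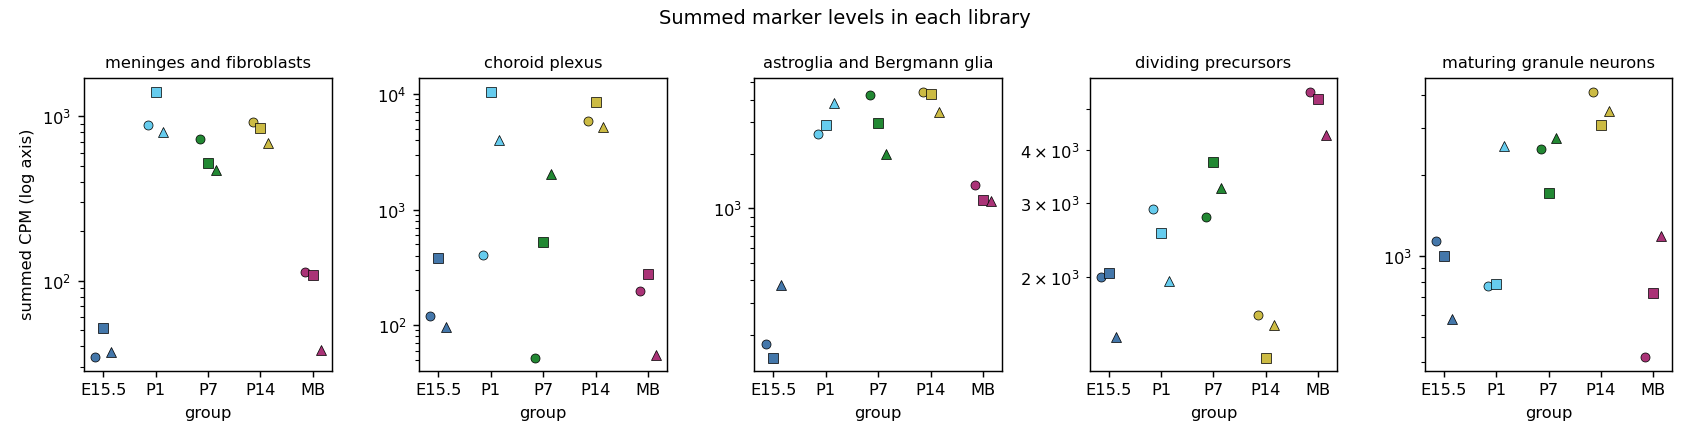
Summed CPM of the marker lists (vertical axis, log scale) in each library of the 5 groups (horizontal axis), with circles, squares and triangles for replicates 1, 2 and 3. Meningeal markers stay at or under 51.4 CPM at E15.5, lie between 470 and 1412 CPM at the postnatal ages and between 37.9 and 113 CPM in MB.

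In medulloblastoma all 4 genes stayed expressed, at or below their level in P7 precursors. Zic1 was at 1157, 1676 and 1705 CPM in the MB libraries, Zic2 at 231, 424 and 492, Zic4 at 156, 186 and 191, and Zic5 at 144, 126 and 177. Zic1, Zic2 and Zic4 were lower in every MB library than in every P7 library, while Zic5 overlapped. How many of all genes separate in this way was not counted, in this or any other comparison. The log2 differences from P7 were -0.44 for Zic1 (interval -0.88 to -0.00, adjusted p = 0.115), -0.64 for Zic2 (-1.21 to -0.06, 0.0812), -0.38 for Zic4 (-0.71 to -0.05, 0.0727) and -0.70 for Zic5 (-1.30 to -0.10, 0.0670). So 0 of 4 passed, against 34.5% of all genes in edgeR. At an unadjusted p under 0.05 the number was 4, and DESeq2 called 0. The share of all genes that passed either of these was not counted, so neither number can be set against a background.

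That count differed between alternatives, for which the share of all genes called was not counted. Upper quartile scaling gave 2 calls, Zic4 (-0.46, adjusted p = 0.0344) and Zic5 (-0.78, 0.0478). A term for the counting set gave 3, Zic1 (-0.78, 0.0161), Zic2 (-1.17, 0.00595) and Zic5 (-1.001, 0.0243). That term can be estimated only from the split groups, E15.5 and MB. It rests on how E15.5 replicate 2 and MB replicate 1 differ from the rest of their groups. Within 1 set the MB arm is replicate 1 alone, the library with a median log2 deviation of -0.91 in genes of high GC content, and is assumed to vary like the other groups. There the 3 calls were Zic1 (-0.84, 0.0193), Zic2 (-1.37, 0.00415) and Zic4 (-0.57, 0.0440). Without MB replicate 1 the values were -0.28 for Zic1 (0.309), -0.38 for Zic2 (0.242), -0.29 for Zic4 (0.167) and -0.68 for Zic5 (0.115). Zic2 was called without MB replicate 3 (-0.86, adjusted p = 0.0375), and Zic5 without P7 replicate 1 (-0.85, 0.0440). All of these lay below 0, as did the estimates above.

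Against P14, Zic2 was the member called, lower in MB at 0.62 times the P14 level (log2 difference -0.68, SE 0.27, interval -1.25 to -0.11, adjusted p = 0.0469). Every MB library lay below every P14 library. The comparison called 50% of all genes, 27.2% lower, so 1 of 4 called lower is near the share of genes called lower. Zic1 was at -0.35 (adjusted p = 0.174), Zic4 at -0.08 (0.689) and Zic5 at -0.03 (0.941). The comparisons with P7 and P14 share the MB libraries.

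The Zic2 difference was smaller without MB replicate 1. It was then -0.42 (adjusted p = 0.164), and after a correction for the GC content of transcripts -0.25 (0.324). The Zic2 model has 59.9% G and C, against 45.7% for Zic1, 47.4% for Zic4 and 49.8% for Zic5. Over the 1498 genes of highest GC content, at least 58.1%, the median log2 deviation was -0.91 in MB replicate 1 and between -0.26 and 0.34 in the other libraries. The call was also lost without P14 replicate 1 (-0.64, adjusted p = 0.109), replicate 2 (-0.74, 0.0668) or replicate 3 (-0.66, 0.101), and without MB replicate 2 (-0.76, 0.0618). It was lost as well with a term for the counting set (-0.51, adjusted p = 0.0830), within 1 set, which leaves out MB replicate 1 (-0.42, 0.145), and with those groups fitted alone (-0.68, 0.0763).

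Against the other ages, 0 of 4 members were called in MB, where edgeR called 50.1% of genes against E15.5 and 38.7% against P1. At an unadjusted p under 0.05 the number was 1 in each comparison, and the share of all genes at that p was not counted. The log2 differences from E15.5 were 0.45 for Zic1 (adjusted p = 0.0811), -0.32 for Zic2, 0.26 for Zic4 and -0.41 for Zic5. From P1 they were 0.07, -0.30, -0.34 (0.0967) and -0.37. Some alternatives made calls here. Against E15.5, Zic1 was called higher by DESeq2 (0.44, adjusted p = 0.0481), without MB replicate 1 (0.61, 0.0208) and without E15.5 replicate 2 (0.60, 0.0434). Zic2 was called lower with a term for the counting set (-0.61, adjusted p = 0.0485), and Zic5 without E15.5 replicate 3 (-0.68, 0.0373). Against P1, Zic4 was called lower with upper quartile scaling (-0.52, adjusted p = 0.0163).

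Markers of other cells differed between MB and P7 too. Meningeal markers were low in MB: 10 of 12 were lower than at P7, with a summed level of 37.9 to 113 CPM, and Foxd1 was the gene of that list that was higher, at 11.2 to 72.3 CPM. Markers of GABAergic interneurons summed to 7.33 to 10.3 CPM in MB and 258 to 395 at P7, with 8 of 8 lower. Endothelial markers, 6 of 6 lower, summed to 17.6 to 31.5 CPM in MB and 285 to 348 at P7. Astroglial markers, 6 of 8 lower, summed to 1095 to 1355 CPM in MB and 2005 to 4226 at P7. Microglial markers, 6 of 8 higher, summed to 149.8 to 414 CPM in MB and 41.7 to 127 at P7. Markers of maturing granule neurons, 4 of 7 lower, summed to 417 to 1191 CPM in MB, and those of dividing precursors, 4 of 6 tested higher, to 4357 to 5504. Their part in the Zic levels of MB was not tested.

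**Figure D3:**
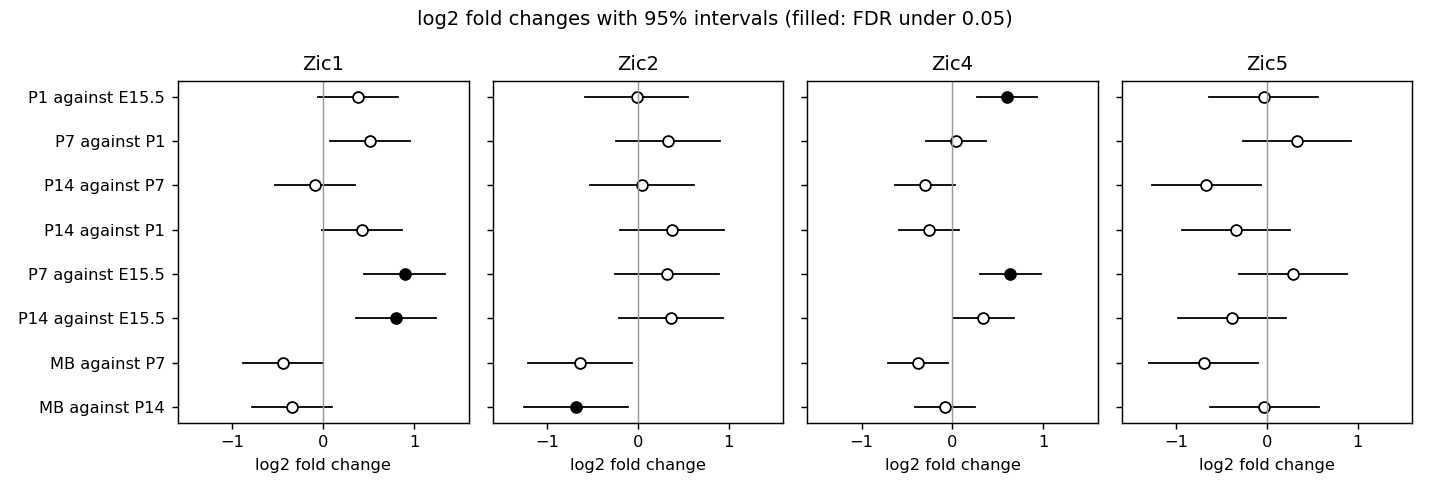
log2 fold change (horizontal axis) of each Zic gene in 8 comparisons (vertical axis), with 95% intervals and filled points where the adjusted p was under 0.05. Zic1 is called in P7 and P14 against E15.5, Zic4 in P1 and P7 against E15.5, Zic2 in MB against P14, and Zic5 in none.

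Of the divergent pairs, the ratio of Zic4 to Zic1 differed over the ages after adjustment, and that of Zic5 to Zic2 did not pass. Counts of Zic4 were 13.6% of those of Zic1 at E15.5 and 15.7% at P1, then 11.3% at P7 and 9.79% at P14 (means of log ratios, n = 3). Over the 12 libraries of the 4 ages the ratio differed (exact permutation test over 369600 assignments, p = 0.0037013, adjusted p = 0.0296 over 8 tests). P1 and P14 did not overlap, with 13.02% to 18.3% against 9.69% to 9.997% and a log2 difference of -0.68 (exact permutation p = 0.1, the smallest that 3 against 3 allows). In MB the ratio was 11.9%, against P7 a log2 difference of 0.08 (exact two-sided permutation p = 0.7).

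For the pair of Zic5 and Zic2, the P14 libraries stood apart. Counts of Zic5 were 40.7% of those of Zic2 at E15.5 and 40.6% at P1, then 40.0% at P7 but 24.9% at P14, with 40.6% in MB. The 4 ages gave an exact permutation p of 0.0391, which was 0.133 after adjustment over the 8 tests. The P14 libraries lay between 24.3% and 25.6% and overlapped none of the others, while MB ranged from 29.7% to 62.6%, with replicate 1 the highest. P14 was lower than P1 by a log2 difference of -0.70 (exact permutation p = 0.1, the smallest possible). After the GC correction that difference was -0.22, and MB against P14 went from 0.71 to 0.25. The corrected ratios of the 4 ages gave an exact permutation p of 0.00786, without adjustment.

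**Figure D4:**
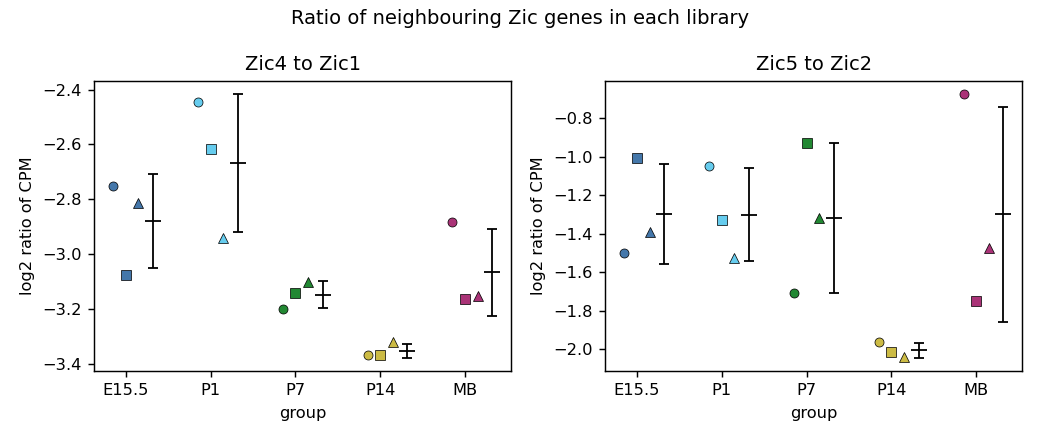
log2 ratio of CPM (vertical axis) of Zic4 to Zic1 and of Zic5 to Zic2 in each library of the 5 groups (horizontal axis), with circles, squares and triangles for replicates 1, 2 and 3 and the mean and SD of 3. The P14 libraries are the lowest in both panels, at 9.79% for Zic4 to Zic1 and 24.9% for Zic5 to Zic2.

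Genes that act around Zic factors in this lineage were read from 3 lists. Of 7 Gli and Glis genes, 6 were tested. At P1 against E15.5, 2 were higher and 0 lower, against 46.3% of all genes called (list median 0.58, all genes 0.03), with Gli1, a direct target and effector of hedgehog signalling, at 125 ± 45.1 CPM against 13.8 ± 3.13 (log2 difference 3.19, adjusted p = 2.26e-05). In MB against P7, 2 were higher and 1 lower (median 0.40, all genes 0.02), against 34.5% of all genes called. Gli1 was at 547 ± 301 CPM in MB and 130 ± 15.8 at P7 (2.07, adjusted p = 6.16e-04), and Gli3, the main repressor of the family, at 3.82 ± 2.72 and 42.8 ± 2.69 (-3.50, adjusted p = 1.95e-05).

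All 13 genes of the hedgehog and Atoh1 list were tested. In P1 against E15.5, 6 were higher and 2 lower, against 46.3% of all genes called, with Hhip, a hedgehog-binding inhibitor that hedgehog induces, at 18.1 ± 3.34 CPM against 0.467 ± 0.150 (5.18, adjusted p = 6.52e-07) and Atoh1 lower (-1.43, 8.57e-04). In P14 against P1, where 8.94% of all genes were called, 0 were higher and 4 lower, among them Ccnd1, a cyclin of the G1 phase (-1.70, adjusted p = 0.0120). In MB against P7, 10 were higher and 1 lower (median 1.12, all genes 0.02), against 34.5% of all genes called. Atoh1 was at 280 ± 43.0 CPM in MB and 30.6 ± 7.85 at P7 (3.19, adjusted p = 1.28e-06), and Cdon, a hedgehog co-receptor, was the lower gene (-3.21, 5.82e-06).

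Of 23 other transcription factors of the granule lineage, all tested, 6 were higher and 5 lower in P1 against E15.5 (46.3% of all genes called), 1 and 1 in P7 against P1 (3.15%), and 2 and 0 in P14 against P7 (10.3%). Barhl2 rose between E15.5 and P1 (2.17, adjusted p = 7.48e-05), as did Nfix (1.95, 0.00117). Meis2 and Lhx9, factors of the early rhombic lip and nuclear neurons, fell (-4.72, 2.02e-05, and -4.57, 1.12e-05). In MB against P7, 2 were higher, the precursor factors Olig3 (3.88, adjusted p = 2.27e-06) and Barhl1 (1.30, 7.89e-04). Another 8 were lower, so 10 of 23 were called against 34.5% of all genes, among them Neurod2, a factor of differentiating neurons (-5.69, adjusted p = 1.96e-06).

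The profile most like each member's was sought among 11572 genes with at least 5 CPM, by the root mean square difference of centred log2 levels over the 15 libraries. For Zic1 these were C2cd2 (0.13), Zfp592 (0.18) and Socs7 (0.18), where the median gene was at 0.61. For Zic2 they were Mfhas1 (0.13), Dab2ip (0.14) and Gdf11 (0.15), for Zic4 Mfap3 (0.12), Polm (0.15) and Slc38a1 (0.16), and for Zic5 Pygo1 (0.20), Gucy1a2 (0.22) and Prdm10 (0.23). These are descriptions over the same 15 libraries, which differed in depth and in the level of genes of high GC content. Among the members, Zic1 and Zic4 were the closest, at 0.27, with 0.631% of candidates nearer to Zic1 than Zic4 was and 1.76% nearer to Zic4 than Zic1 was. Zic2 and Zic5, the other pair, were at 0.40. Zic2 was nearer to Zic1 (0.31) and to Zic4 (0.35) than to Zic5. Zic5 was nearer to Zic4 (0.35) than to Zic2, and farther from Zic1 (0.47). A flat profile lay at 0.37 from Zic1, 0.40 from Zic2, 0.27 from Zic4 and 0.40 from Zic5.

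The genes around the 2 pairs were also read. The Zic1 and Zic4 pair stands alone, with its nearest named neighbours 1087 kb away, Tbc1d2b, and 861 kb away, Plscr1. Tbc1d2b was higher in MB than at P7 (log2 difference 0.60, adjusted p = 0.0229), where neither Zic1 nor Zic4 was called. The Zic5 and Zic2 pair has Gm5089 5.68 kb beyond Zic5 and Gm10837 10.7 kb beyond Zic2. Gm5089 was at 18.3 ± 11.1 CPM at P1, then 9.65 ± 2.61 at P7, 3.49 ± 0.455 at P14 and 4.10 ± 3.88 in MB. It was lower at P14 than at P1 (-2.39, adjusted p = 0.0278) and than at E15.5 (-2.15, 0.00791), while Zic5 did not pass in either comparison (-0.34, 0.458, and -0.38, 0.269). Clybl, 54.6 kb away, was lower in MB than at P7 (-1.20, adjusted p = 6.25e-04).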

How the data were processed

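Polyadenylated RNA from 15 libraries, 3 per group, was sequenced on an Illumina HiSeq, per the labels' protocols. The authors deposited whole-number read counts per gene, transcript model and start site. The submitters' processing notes name Trimmomatic, TopHat, StringTie, HTSeq and mm9, without versions or roles, and use of strand is not given in the sources used here. Reads in no gene (14.1% to 29.2%) were left out. Symbols matched 20358 of 21889 identifiers.

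The gene counts were fitted with edgeR 4.0.16 in R 4.3.3 (TMM, filterByExpr with minimum count 10, 1 mean per group, 10 residual degrees of freedom, quasi-likelihood F-tests, calls at an adjusted p under 0.05 over 15259 genes). RPKM use the union of deposited exons. Log ratios of pairs (pseudocount 0.5) were tested by exact permutation. The members, lists and naming rules (per list and comparison the 2 called genes of largest change in each direction; the 3 most alike genes; the 3 nearest neighbours on each side) were chosen with earlier results of these data known, and the neighbours described were picked after their values were seen. Alternatives were other scaling, no filter, DESeq2 1.42.0, the other tables, a replicate block, a counting set term, the compared groups alone and each library left out; the GC correction and the fit within 1 counting set were chosen after seeing the data. The counting set of 6 holds E15.5 replicates 1 and 3, P7 and MB replicate 1. The code was tested on simulated data.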

Additional observations from a re-analysis of the deposited data

How the results depend on the processing

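Of 652 estimates for the 4 genes under the alternatives, 586 kept their direction and side of the threshold, 14 lost a call, 20 gained one, 32 that were not called changed sign, and 0 called values changed sign. The calls of Zic1 in P7 against E15.5 (0.72 to 1.06) and of Zic4 in P7 against E15.5 (0.49 to 0.72) held under every alternative run, on the log2 scale. The number of members called in MB against P7, 0 as reported, was 2 with upper quartile scaling, 3 with a term for the counting set, 3 within 1 counting set, where the MB arm is replicate 1 alone, and between 0 and 1 with 1 library left out. In MB against P14 it was 1 as reported and 0 with the counting set term, with the compared groups alone, with GC correction and within 1 counting set, and between 0 and 1 with 1 library left out. In P1 against E15.5 it was 1 as reported and 0 with the counting set term and within 1 counting set, where the E15.5 arm is replicate 2 alone. In P14 against P7 it was 0 as reported and 1 with the compared groups alone. The share of all genes called under each alternative was not counted, and the cause of these changes was not tested.

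For the pair ratios, GC correction gave log2 differences for Zic5 to Zic2 of -0.22 in P14 against P1, -0.18 in MB against P7 and 0.25 in MB against P14. Over the 4 ages its corrected range of group means was 0.63, with an unadjusted exact permutation p of 0.00786 against 0.0391 as reported. With 1 library left out, Zic4 to Zic1 ranged from -0.82 to -0.57 in P14 against P1 and from -0.011 to 0.13 in MB against P7. Zic5 to Zic2 ranged from 0.69 to 0.88 over the 4 ages, from -0.29 to 0.25 in MB against P7 and from 0.40 to 0.93 in MB against P14; its exact permutation p for the 4 ages rose to at most 0.109.

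With the replicate number as a block, 0 members were called in MB against P14 (Zic2 -0.69, adjusted p = 0.0634), and no other call of the 4 members changed. The numbers do not pair the libraries: over 30 same-numbered pairs the correlation of deviations ran from -0.31 to 0.33, above 0.1 in 7. Groups of 3 limit the exact tests to p = 0.1, and the start-site table held models of 2 members, so no count of 4 was made from it.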

Other observations

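The deposited transcript models split 2 of the Zic genes in ways the gene counts do not show. Zic1 has a second, short model of 395 bases beside its long model of 5606 bases. Its count was 26.8% ± 1.68 of that of the long model at E15.5 and 18.4% ± 1.01 at P1, then 30.7% ± 8.23 at P7 and 20.1% ± 0.726 at P14, with 24.5% ± 2.59 in MB (SD, n = 3). The P1 and P14 libraries lay below all those of E15.5 and MB, and the models share bases, so a read can count for both.

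A deposited model with no gene name covers the start of Zic2, at chr14:122874604-122877222 on mm9. Its count was between 22.9% and 66.3% of that of the Zic2 model. It was lowest in MB replicate 1, against 61.2% and 64.2% in the other MB libraries, and between 33.8% and 38.5% in the E15.5 libraries. At P14 it was between 62.4% and 66.3%. Reads of Zic2 and of this model cannot be told apart where they overlap. The gene count of Zic5 was 73.3% to 81.3% of its transcript model count in the set of 6 libraries and 78.9% to 83.2% in the set of 9, while that of Zic1 was 97.5% to 99.6% over all libraries.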
